A study of Mus musculus with 2 samples.

Results

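The CC chemokines described here are Ccl2, Ccl3, Ccl4, Ccl5, Ccl6, Ccl7, Ccl8, Ccl9, Ccl11 and Ccl12, 10 of the 33696 genes counted in the series. They were chosen by gene symbol, without use of a measured value. Single-cell RNA sequencing was performed on the suprarenal abdominal aorta of 5-month-old male C57BL/6J mice on day 28. The Control library came from mice given saline, and the AngII+HS library from mice given angiotensin II (AngII) by minipump together with NaCl and KCl in the drinking water (high salt, HS), a model of abdominal aortic aneurysm. There was 1 library per condition, so that differences between the 2 libraries could not be checked against replicates. The design text states that each library pooled 5 mice, whereas the protocol speaks of 1 control mouse and 2 treated mice. The values are counts of unique molecular identifiers (UMIs), each of which marks 1 captured RNA molecule. Levels are given as CPM, counts per 1000000 UMIs summed over all cells of a type in a library, and ranges in brackets after a level are 95% exact Poisson intervals, which cover counting error only.

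CC chemokines are small secreted proteins that bind G-protein-coupled receptors on leukocytes and steer these cells into tissue. Ccl2, Ccl7 and Ccl12 act on CCR2, the receptor of inflammatory monocytes, while Ccl3 and Ccl5 act on CCR1, and Ccl4 is a close relative of Ccl3 that attracts macrophages and T cells. Ccl6 and Ccl9 are rodent CCR1 ligands of myeloid cells, Ccl8 of the mouse acts on CCR8, and Ccl11 (eotaxin) draws eosinophils through CCR3. In the vessel wall, macrophages and adventitial fibroblasts are known producers.

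All 10 genes lie on mouse chromosome 11 in a pair of groups (GENCODE annotation of GRCm39, matched by the gene identifiers of the files). Ccl2, Ccl7, Ccl11, Ccl12 and Ccl8 span 81.2 kb, all on the plus strand. Ccl5, Ccl9, Ccl6, Ccl3 and Ccl4 span 138.9 kb, with Ccl4 on the plus strand and the other 4 genes on the minus strand. Ccl2 (chr11:81926397-81928279, 3 exons) and Ccl7 (chr11:81936532-81938351, 3 exons) lie 8.3 kb apart, and Ccl3 (chr11:83538670-83540191, 3 exons) and Ccl4 (chr11:83553383-83555509, 3 exons) 13.2 kb apart. The 200 bases before the start of the canonical transcript of these neighbouring genes are shown because the results below set the members of each pair against each other, and those of Ccl5 (chr11:83416602-83425942, 3 exons) are shown as the member led by T cells. The canonical transcript of Ccl5 starts at 83421345, inside the span of the gene, as does that of Ccl9 (83469467), and for the other 8 members it starts at the edge of the gene. All 5 are read 5′ to 3′ on the strand of the gene from GRCm39, and capitals mark matches to 4 searched motifs on either strand, which are the NF-kB consensus, the AP-1 motif TGANTCA, the cAMP response element (CRE) TGACNTCA and the TATA motif TATAAA.
Ccl2 promoter, chr11:81926197-81926396, plus strand: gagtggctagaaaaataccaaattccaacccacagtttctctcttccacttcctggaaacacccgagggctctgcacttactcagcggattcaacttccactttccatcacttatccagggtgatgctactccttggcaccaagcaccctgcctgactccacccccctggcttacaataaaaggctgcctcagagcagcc
Ccl7 promoter, chr11:81936332-81936531, plus strand: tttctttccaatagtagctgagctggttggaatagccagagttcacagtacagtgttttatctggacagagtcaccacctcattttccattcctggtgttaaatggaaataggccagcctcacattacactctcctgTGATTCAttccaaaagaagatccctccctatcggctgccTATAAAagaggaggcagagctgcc
Ccl3 promoter, chr11:83540192-83540391, minus strand: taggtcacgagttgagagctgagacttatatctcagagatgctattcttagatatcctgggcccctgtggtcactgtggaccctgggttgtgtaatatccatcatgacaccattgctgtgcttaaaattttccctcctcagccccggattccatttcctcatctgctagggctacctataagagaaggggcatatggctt
Ccl4 promoter, chr11:83553183-83553382, plus strand: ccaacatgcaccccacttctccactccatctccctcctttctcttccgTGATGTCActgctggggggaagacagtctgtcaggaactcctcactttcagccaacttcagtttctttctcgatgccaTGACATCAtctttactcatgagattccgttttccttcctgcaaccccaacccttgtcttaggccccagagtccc
Ccl5 promoter, chr11:83421346-83421545, minus strand: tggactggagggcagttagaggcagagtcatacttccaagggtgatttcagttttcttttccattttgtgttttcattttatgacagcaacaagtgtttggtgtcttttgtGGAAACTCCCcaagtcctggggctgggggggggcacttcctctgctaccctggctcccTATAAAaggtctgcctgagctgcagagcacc
This form of the NF-kB motif was found in Ccl5 alone of the 10 members, 89 bases before the start, and in 0.377% of the 21770 windows of the same length before protein-coding genes. Other forms of the NF-kB site were not searched. Ccl4 was the one member with CRE matches, at 152 and 74 bases before the start (5.97% of all windows). The AP-1 motif was found in Ccl7 and Ccl9 (4.93% of all windows) and TATAAA in Ccl5, Ccl7, Ccl8 and Ccl9 (9.57%). The paired neighbours thus did not share a match, and the windows of Ccl2 and Ccl3 held none of these letters. A match describes the sequence and not a bound factor.

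After filters, 10269 Control cells (median 7274 UMIs) and 19734 AngII+HS cells (median 3065.5 UMIs) remained, with 75294050 and 80581691 UMIs. Chemokine ligand genes were left out of the genes used for clustering, so that no member set the clusters it was measured in. The share of vascular smooth muscle cells (VSMCs) was 48.8% in the Control and 3.18% in AngII+HS, that of macrophages and monocytes 4.71% and 22.3%, neutrophils 0.964% and 23.6%, and fibroblasts 19.0% and 21.6%. Clusters left unnamed held 10.9% and 4.45% of cells. The largest of these, with 658 Control and 463 AngII+HS cells of low depth (median 1186 UMIs), matched the fibroblast markers best. It is not part of the fibroblast shares, whose difference between the libraries depends on leaving it out. The cluster called erythroid was mixed, with 38 cells led by hemoglobin genes in the Control. In AngII+HS it held 77 shallow cells led by macrophage genes and 23 cells led by Ctsk, Mmp9, Acp5 and Atp6v0d2. Its ratios between the libraries are not given as those of a type. It does count among the types in the free-RNA pairs and in the correlations over cell types below. The lists of barcodes filed with the matrices are as long as the matrix of the opposite library (24804 and 11448 entries), and 67 barcodes stood in both. The labels do not settle whether the matrices were exchanged, and every direction given below rests on the matrices as they are labelled. In the matrix labelled AngII+HS, VSMCs were the smaller share, and the collagen gene Col1a1 in fibroblasts was at 14248 CPM, against 2904 CPM in the matrix labelled Control.

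Taking all cells together, 9 of 10 members were at least 2-fold higher in the AngII+HS library and 0 were at least 2-fold lower. Of the 20363 genes with at least 20 UMIs over both libraries, 20.8% were at least 2-fold higher and 11.5% at least 2-fold lower. The median log2 ratio was 2.86 over the members and 0.06 over all genes. Ccl6 (37.1 CPM in the Control and 759 CPM in AngII+HS) and Ccl8 (5.47 and 112 CPM) had the largest log2 ratios, both 4.36. Ccl4, the most abundant member in AngII+HS, was at 290 and 2366 CPM, and Ccl2, the most abundant in the Control, at 317 and 1614 CPM. Ccl3 was at 77.2 and 668 CPM, Ccl7 at 263 and 1153 CPM, Ccl9 at 17.9 and 239 CPM, Ccl5 at 30.4 and 196 CPM and Ccl12 at 11.2 and 58.2 CPM. Ccl11 differed least, at 52.1 and 65.6 CPM. A library level joins the number of cells of a type with the RNA per cell, and these cannot be told apart at this level.

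The library levels were therefore split over the cell types present in both libraries. When the Control level of each type was combined with the AngII+HS share of UMIs of that type, Ccl4 came to 8.19 times its Control value, against an observed ratio of 8.31. When the Control shares were combined with the AngII+HS levels, the ratio was 1.23. For Ccl3 the shares alone gave 8.53 and the levels alone 1.14, and for Ccl5 they gave 5.49 and 1.62. For these members the shares of the cell types gave the larger ratio. Ccl8 and Ccl6 had the largest ratios from the levels alone, 4.41 and 2.92, beside 6.34 and 10.3 from the shares. For Ccl12 and Ccl11 the parts lay on opposite sides of 1, with 8.11 from the shares and 0.942 from the levels for Ccl12, and 2.75 and 0.618 for Ccl11. A different mixture of subclusters within a type counts here as a difference in level. The ratio from the levels alone weights VSMCs most, as they held most Control UMIs. It thus includes VSMC values that were under the free-RNA level described below. These were 1.71 and 21.9 CPM for Ccl3, 6.78 and 73.9 CPM for Ccl4 and 0.798 and 16.0 CPM for Ccl5. In macrophages and monocytes Ccl3 was lower (0.616-fold) and Ccl4 too (0.792-fold), while Ccl5 in T cells was near equal (0.954-fold). In neutrophils Ccl3 and Ccl4 were higher, as was Ccl5 in macrophages and monocytes.

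**Figure D1:**
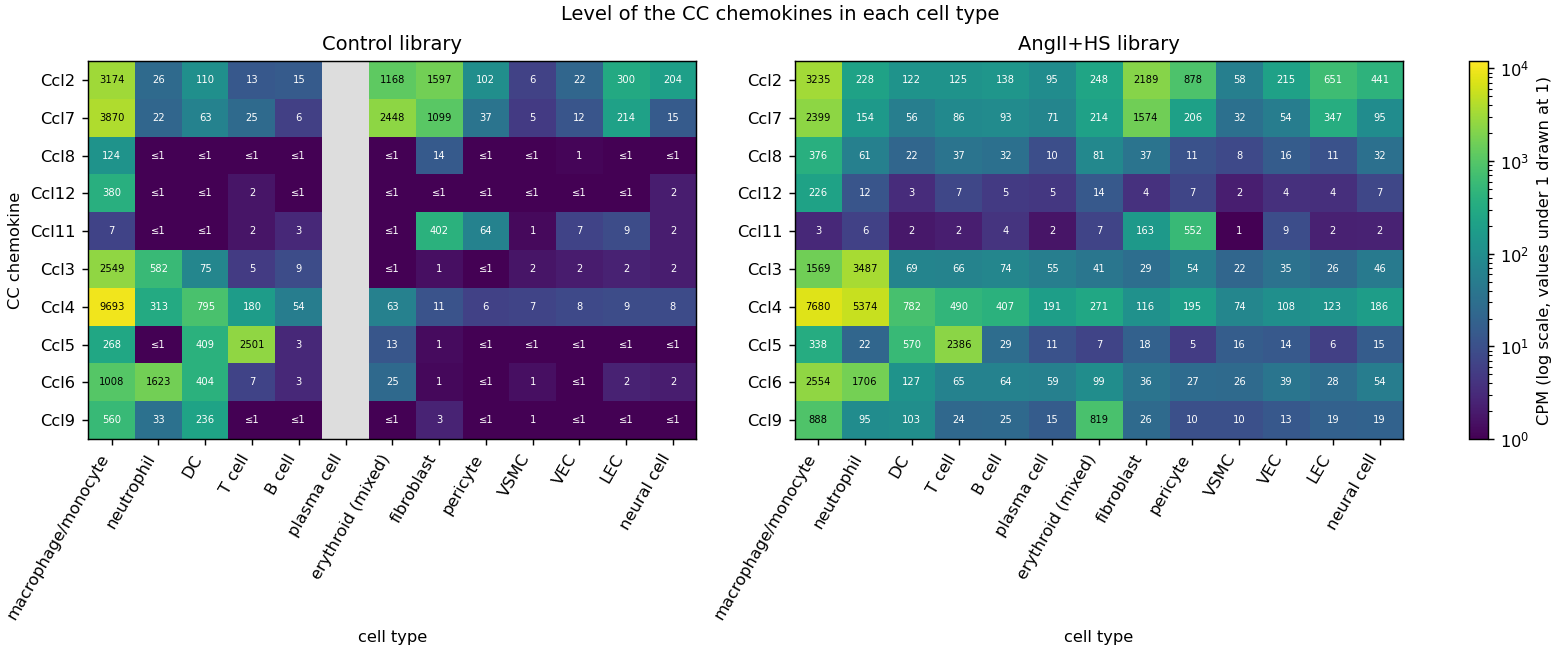
Level of each CC chemokine in each cell type of the Control and the AngII+HS library, in CPM (printed in each field) on a logarithmic colour scale, with gray for a type without cells. Macrophages and monocytes have the highest level of Ccl2, Ccl4, Ccl7, Ccl8, Ccl9 and Ccl12 in both libraries, neutrophils that of Ccl6 in the Control (1623 CPM) and of Ccl3 in AngII+HS (3487 CPM), and T cells that of Ccl5. In AngII+HS the members are also found at low levels in B cells, plasma cells and wall cells.

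Macrophages and monocytes held most UMIs of 6 members in both libraries. Their share in the Control and AngII+HS libraries was 95.7% and 90.6% for Ccl12, 94.3% and 75.6% for Ccl4, 93.3% and 54.8% for Ccl3, 88.3% and 86.7% for Ccl9, 76.9% and 78.4% for Ccl6, and 63.8% and 78.0% for Ccl8. These shares depended on the clustering. At resolution 1.2 the share in the Control fell to 28.4% for Ccl6 and 42.5% for Ccl9, that of Ccl8 in AngII+HS was 23.0%, and fibroblasts led Ccl8 in the Control (31.3%). Without integration of the libraries, neutrophils led Ccl6 in the Control (15.8%) and fibroblasts Ccl8 (21.6%). Macrophages and monocytes led the other 4 there with between 6.63% and 17.4%. The lead was taken among named types, and unnamed clusters were not ranked. In the main clustering neutrophils already held 441 of 2790 Control Ccl6 UMIs, and fibroblasts 130 of 412 Control Ccl8 UMIs. The lead thus changed with a smaller share in named macrophages and monocytes, not with a larger share in neutrophils or fibroblasts. Fibroblasts held 60.1% of the Ccl2 UMIs in the Control and 45.6% in AngII+HS, against 28.3% and 46.7% in macrophages and monocytes. Ccl7 was divided in a similar way, with 49.8% and 45.9% in fibroblasts and 41.5% and 48.5% in macrophages and monocytes. Which of the 2 classes led in AngII+HS changed with the clustering, with fibroblasts first for both genes when no doublets were removed (41.1% and 41.9%). Fibroblasts led Ccl11 in both libraries (92.2% and 83.9%) and T cells led Ccl5 (64.8% and 41.3%). Without integration fibroblasts still led Ccl11, but with 23.75% in the Control and 66.4% in AngII+HS. They then also led Ccl2 (38.2% and 43.2%) and Ccl7 (31.0% and 43.4%). Neutrophils were a second source of Ccl3, with 2.72% of its UMIs in the Control and 40.3% in the AngII+HS library.

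**Figure D2:**
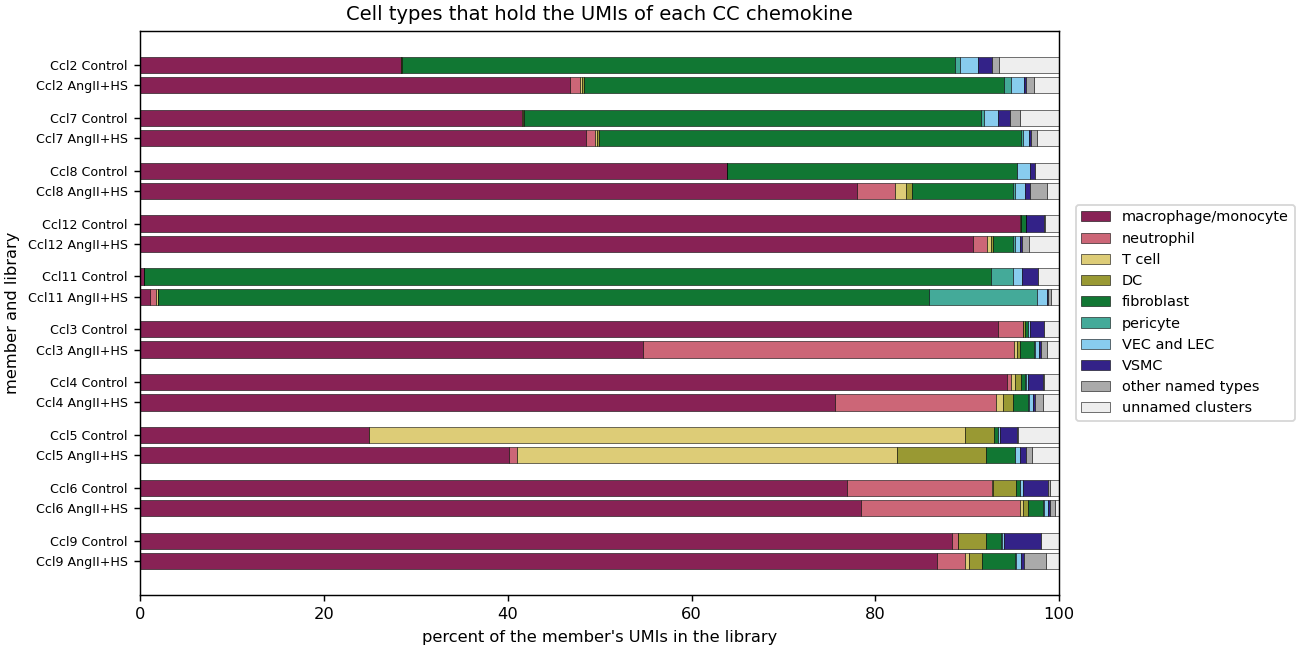
Percent of the UMIs of each CC chemokine held by each cell type (colours) in the Control and the AngII+HS library. Neutrophils take 40.3% of Ccl3, 17.5% of Ccl4 and 17.3% of Ccl6 in AngII+HS, and pericytes 11.7% of Ccl11.

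Ccl2 and Ccl7, the CCR2 ligands that attract monocytes, were shared by immune cells and the vessel wall. In macrophages and monocytes, Ccl2 was at 3174 CPM (3098 to 3250) in the Control and 3235 CPM (3210 to 3261) in the AngII+HS library, with overlapping intervals. Ccl7 was at 3870 CPM (3786 to 3954) and 2399 CPM (2377 to 2421), and Ccl12 at 380 and 226 CPM. Among macrophages and monocytes, 2 of 10 members (Ccl6 and Ccl8) were at least 2-fold higher in AngII+HS and 1 at least 2-fold lower, against 10.7% and 17.4% of 13558 genes. The lower one was Ccl11, which at 6.58 and 2.93 CPM lay under the free-RNA level in both libraries. In the Control that level came from the neutrophil list, at 72.1% of its library level. The median log2 ratio was −0.15 over the members and −0.11 over all genes. In the clustering without integration the log2 ratio was 1.62 for Ccl2 and 1.89 for Ccl7. The class named there held 14.5% of the Control Ccl4 UMIs, against 94.3% in the main clustering. These ratios thus set a smaller part of the Control class against AngII+HS, and the values for these members rest on which cells are named. Scaling by TMM factors gave Ccl4 a log2 ratio of 0.03 in this class. Short of 2-fold, Ccl5 (1.26-fold) and Ccl9 (1.59-fold) were higher and Ccl3 (0.616-fold), Ccl4 (0.792-fold), Ccl7 (0.620-fold) and Ccl12 (0.595-fold) lower in AngII+HS. With TMM factors the log2 ratios of Ccl3, Ccl7 and Ccl12 were −0.33, −0.32 and −0.38, and without integration that of Ccl12 was 0.996. The subclusters of the class also differed in both directions.

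Resident macrophages are given here as the subcluster led by Lyve1, Cd163 and Folr2. A shallow subcluster also named resident, with 59 Control cells (12.2% of the class) and 6 AngII+HS cells, is left out. The resident macrophages given were 64.9% of the class in the Control (314 cells) and 22.2% in AngII+HS (976 cells). Their Ccl8 was at 180 and 1693 CPM, a 9.43-fold higher level (interval 8.31 to 10.7). Ccl4 was at 11560 and 20038 CPM (1.73-fold), Ccl5 at 309 and 734 CPM (2.38-fold) and Ccl3 at 2764 and 3403 CPM. Slightly lower CPM in AngII+HS was found for the CCR2 ligands Ccl2 (4042 and 3415 CPM, 0.845-fold) and Ccl7 (5268 and 4356 CPM, 0.827-fold). The same held for the CCR1 ligands Ccl6 (1217 and 1124 CPM, 0.924-fold) and Ccl9 (640 and 547 CPM, 0.855-fold). In the whole class TMM factors moved the log2 ratio of Ccl7 from −0.69 to −0.32. They were not applied to subclusters, so the direction of such small differences rests on CPM scaling. Ccl12 was at 502 and 620 CPM. Resident macrophages held 60.9% of all Ccl8 UMIs in the Control and 63.6% in AngII+HS, and 83.1% and 44.9% of all Ccl12 UMIs.

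Arg1 macrophages (led by Arg1, Cxcl3, Ppbp, Fn1 and Spp1) were present in the AngII+HS library only, with 1652 cells and 37.6% of the class. Ccl6 was at 5204 CPM and Ccl9 at 1554 CPM in these cells, which held 61.6% of the Ccl6 UMIs and 58.5% of the Ccl9 UMIs of the library. Ccl2 was at 5131 CPM and Ccl7 at 2851 CPM. Ccl8 (24.3 CPM) and Ccl12 (79.9 CPM) were low, so that Ccl8 and Ccl6 were high in different macrophage subclusters of the same library.

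Ly6c2 monocytes (41 Control and 161 AngII+HS cells) had Ccl2 at 256 and 1574 CPM (6.16-fold), Ccl7 at 18.3 and 542 CPM, Ccl6 at 487 and 2550 CPM (5.24-fold) and Ccl9 at 396 and 1039 CPM, while Ccl3 was lower (557 and 419 CPM). Lipid-associated macrophages (led by Mmp12, Gpnmb and Lpl, 53 and 527 cells) had lower Ccl2 (3083 and 1142 CPM), Ccl7 (2745 and 1184 CPM) and Ccl9 (316 and 203 CPM) in AngII+HS, opposite to the monocytes, and higher Ccl6 (304 and 448 CPM), as the monocytes did. Their Ccl4 was at 13932 and 5024 CPM and Ccl3 at 4755 and 1281 CPM, whereas Ccl8 was 16.5-fold higher (11.4 and 188 CPM, interval 5.61 to 80.1). A subcluster led by the interferon genes Irf7 and Ifi205, left unnamed, had 17 Control and 859 AngII+HS cells, with Ccl4 at 5553 CPM and Ccl5 at 522 CPM in AngII+HS. A group of 25 AngII+HS cells led by Marco and Cd209b had Ccl8 at 2056 CPM, in the range of the resident macrophages. The class also held 193 AngII+HS cells of low depth (median 1036 UMIs) led by collagen genes, whose Ccl2 was at 4811 CPM, and 59 Control cells of low depth (median 800 UMIs over both libraries) that carried resident markers, with Ccl4 at 475 CPM.

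**Figure D3:**
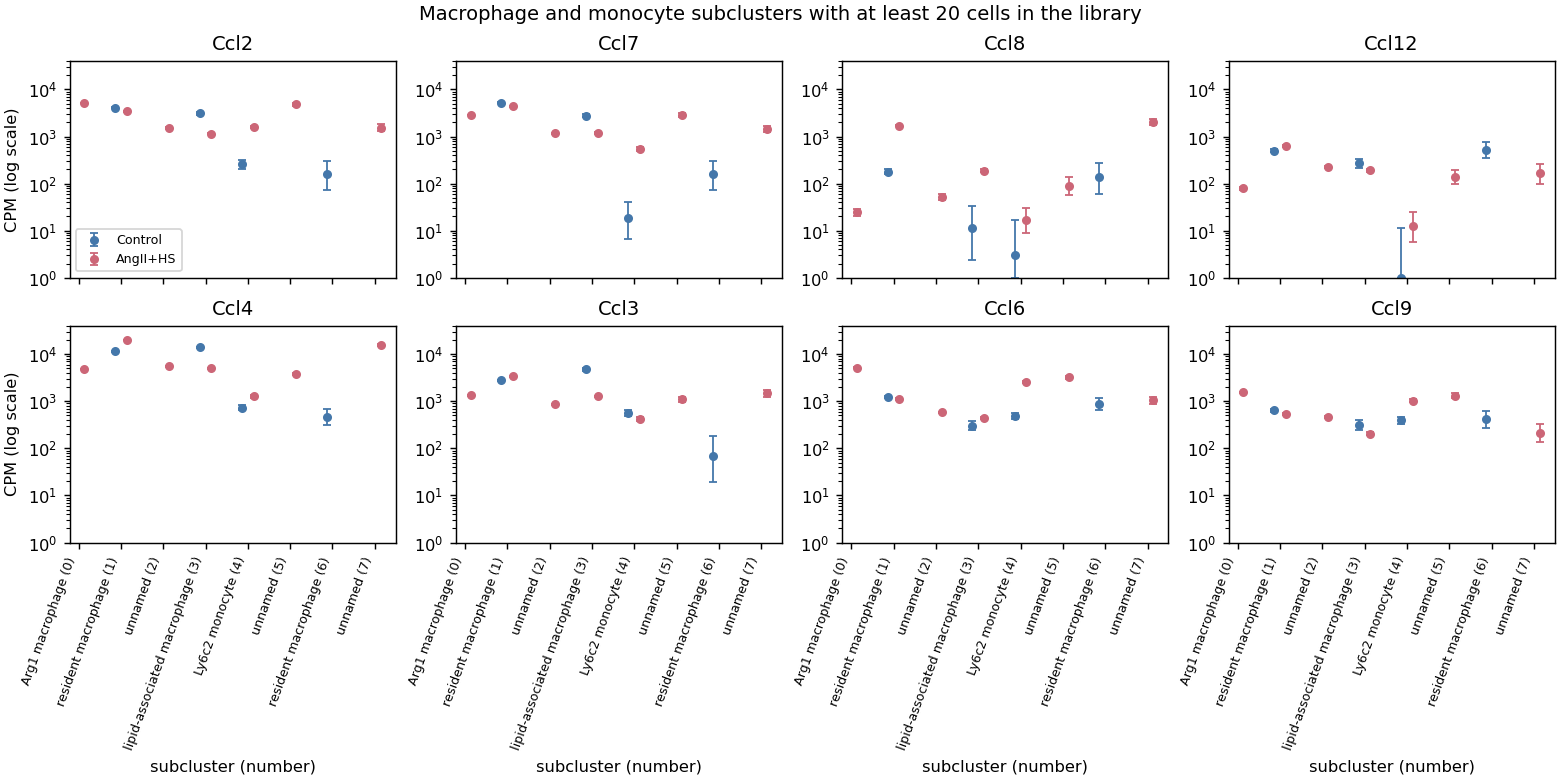
CPM of CC chemokines in the macrophage and monocyte subclusters of the Control and the AngII+HS library, on a logarithmic axis with 95% exact Poisson intervals. Ccl8 is at 1693 CPM in resident and 24.3 CPM in Arg1 macrophages of AngII+HS, and Ccl6 at 1124 and 5204 CPM.

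In fibroblasts, Ccl2 was at 1597 CPM (1571 to 1623) in the Control and 2189 CPM (2172 to 2207) in AngII+HS, and Ccl7 at 1099 and 1574 CPM. In fibroblasts 7 of 10 members were at least 2-fold higher in AngII+HS and 1 (Ccl11) at least 2-fold lower, against 7.75% and 8.69% of 15784 genes, with a median log2 ratio of 3.21 over the members and −0.15 over all genes. The 7 were Ccl3, Ccl4, Ccl5, Ccl6, Ccl8, Ccl9 and Ccl12. All of these but Ccl8 lay under the free-RNA level of fibroblasts in AngII+HS, and Ccl8 (14.5 and 36.9 CPM) was 1.15 times its level in B cells there.

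The fibroblast subclusters differed in Ccl2 and Ccl7. Subcluster 0, led by Sfrp4, C7 and Clec3b, had Ccl2 at 1335 CPM in the Control and 3196 CPM in AngII+HS (2.39-fold) and Ccl7 at 990 and 2432 CPM (2.46-fold). Subcluster 2, led by Lamc3 and Dio2, had Ccl2 at 1547 and 1548 CPM, and subcluster 1, led by Thbs2 and Col11a1, had it at 1745 and 1429 CPM. The difference in the whole class was thus uneven among its subclusters. Pi16 fibroblasts had Ccl2 at 2776 and 3693 CPM. A Postn fibroblast subcluster led by Mmp13, Saa3 and Lcn2, with 1 Control and 386 AngII+HS cells, had Ccl2 at 3548 CPM and Ccl7 at 2634 CPM in AngII+HS.

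Other wall cells had lower levels. In pericytes, which surround capillaries, Ccl2 was at 102 CPM (86.3 to 120) and 878 CPM (824 to 934), in lymphatic endothelial cells (LECs) at 300 and 651 CPM and in neural cells at 204 and 441 CPM. These were above the free-RNA level except in Control pericytes, where the interval held that level (99.4 CPM). In Control pericytes the level came from the fibroblast list, at 31.4% of its library level, and is too high if pericytes make these genes. In vascular endothelial cells (VECs) Ccl2 was at 22.4 and 215 CPM, and in AngII+HS this was under the estimate from the highest foreign gene list (333 CPM) but 1.56 times the level in B cells. Among VECs the venous cells had the highest of the named subclusters, at 72.5 and 350 CPM, above the capillary cells at 7.71 and 196 CPM. The 2 arterial subclusters had 6.75 and 78.9 CPM in one and 11.1 and 71.2 CPM in the other. VSMCs had 6.46 and 58.3 CPM, in AngII+HS 0.422 times the B cell level.

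**Figure D4:**
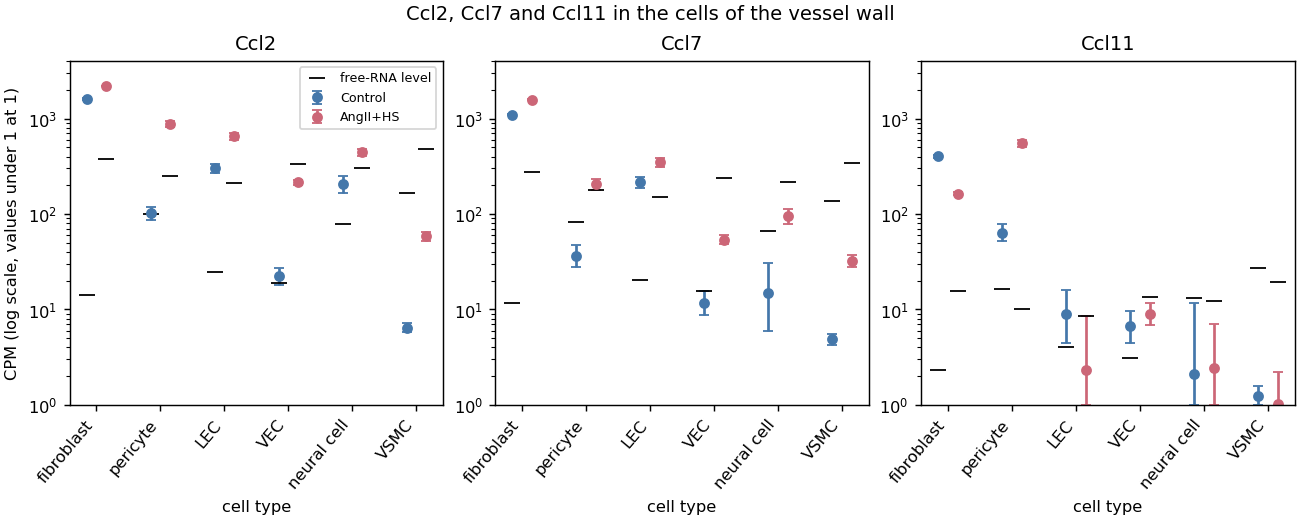
CPM of Ccl2, Ccl7 and Ccl11 in fibroblasts and other vessel wall cells of the Control and the AngII+HS library, on a logarithmic axis with 95% exact Poisson intervals; short black lines are the free-RNA level of each library. Ccl11 is lower in fibroblasts (402 and 163 CPM) and higher in pericytes (63.9 and 552 CPM) of AngII+HS.

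Ccl2 and Ccl7 kept a nearly fixed ratio in fibroblasts, with 1.45 Ccl2 UMIs per Ccl7 UMI in the Control (1.42 to 1.49) and 1.39 in AngII+HS (1.37 to 1.41). In macrophages and monocytes the ratio was 0.820 and 1.35. In AngII+HS it was 1.48 in B cells, 1.46 in T cells and 1.48 in neutrophils, all near the fibroblast and macrophage values. The ratio was furthest from these in neural cells (4.64), pericytes (4.27) and VECs (3.98). DCs (2.20, interval 1.81 to 2.69), LECs (1.88, 1.63 to 2.17) and VSMCs (1.81, 1.52 to 2.18) lay between, with intervals above the fibroblast and macrophage values. With each cell thinned to 1000 UMIs, 356 of 1847 Control fibroblasts held UMIs of both genes, 1.94 times the number expected if they were independent, and 1276 of 4190 AngII+HS fibroblasts did, 1.49 times.

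Ccl11, the CCR3 ligand, was a gene of fibroblasts and pericytes. In fibroblasts it was at 402 CPM (389 to 416) in the Control and 163 CPM (159 to 168) in AngII+HS, a log2 ratio of −1.30 (−1.36 to −1.24). Without integration the log2 ratio in fibroblasts was −0.13. The class named fibroblast then held 23.75% of the Control Ccl11 UMIs, against 92.2% in the main clustering. With integration Ccl11 was lower in AngII+HS in each of the 6 fibroblast subclusters with at least 42 cells in both libraries. The values ranged from 1081 and 759 CPM in Pi16 fibroblasts to 52.6 and 8.86 CPM in subcluster 4, led by Hhip. One of the 6, subcluster 6 at 194 and 16.5 CPM, has the VSMC markers Tagln, Myh11 and Acta2 and 0 fibroblast subtype markers among its 10 leading genes. Pi16 fibroblasts held 54.7% of all Ccl11 UMIs in the Control, and the Mmp13-led Postn fibroblasts, at 338 CPM, held 28.5% in AngII+HS. In pericytes Ccl11 was at 63.9 CPM (51.6 to 78.2) and 552 CPM (509 to 597), a log2 ratio of 3.11 (2.80 to 3.44), opposite in sign to that of fibroblasts. All 6 pericyte markers were also higher in AngII+HS pericytes, among them Rgs5 (1435 and 3526 CPM), Abcc9 (151 and 336 CPM), Notch3 (608 and 1161 CPM) and Higd1b (32.6 and 125 CPM), and their part in the Ccl11 ratio was not tested. The fibroblast marker list stood at 31.4% of its library level in Control pericytes and 15.4% in AngII+HS pericytes, which are shares of different library levels and do not compare the amounts. With double the number of doublets removed, pericytes gave no Ccl11 ratio. UMIs of Ccl11 were found in 10.9% and 28.0% of pericytes (19 of 175 and 61 of 218 cells).

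Ccl3 and Ccl4, which attract macrophages and lymphocytes, had a neutrophil source beside macrophages. In neutrophils Ccl3 was at 582 CPM (494 to 680) in the Control and 3487 CPM (3441 to 3534) in AngII+HS, and Ccl4 at 313 CPM (250 to 387) and 5374 CPM (5316 to 5432). The cells behind these values differed. All 99 Control neutrophils fell into the Retnlg subcluster led by Ngp, Ly6g and Mmp8, which held 1 AngII+HS cell, so that the comparison sets different neutrophil clusters against each other. In AngII+HS, the 4 largest subclusters had Ccl3 at 3203, 3725, 3244 and 4667 CPM. The last of these, 258 cells led by Ifit3, Rsad2 and Isg15, also had the highest Ccl4, at 10269 CPM, where the other 3 were between 4962 and 5165 CPM. In neutrophils 7 of 10 members were at least 2-fold higher and 0 lower, against 17.4% and 10.5% of 9981 genes. Of the 7, Ccl3, Ccl4, Ccl8 and Ccl9 lay above the free-RNA level in AngII+HS, and Ccl2, Ccl5 and Ccl7 did not.

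Macrophages and neutrophils made the pair in different proportion. Macrophages and monocytes had 3.80 Ccl4 UMIs per Ccl3 UMI in the Control and 4.89 in AngII+HS, and neutrophils 0.538 and 1.54. In the other types of AngII+HS the ratio was between 3.08 in VECs and 11.4 in dendritic cells (DCs). T cells also stood above macrophages, at 7.44, whereas fibroblasts (3.97), VSMCs (3.37), pericytes (3.59), plasma cells and VECs stood between neutrophils and macrophages. The intervals of B cells (4.65 to 6.54), LECs (2.99 to 7.94) and neural cells (3.02 to 5.52) held the macrophage value.

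Ccl5, a CCR1 ligand made by cytotoxic lymphocytes, was at 2501 CPM (2375 to 2631) in T cells of the Control and 2386 CPM (2329 to 2445) in T cells of AngII+HS, with overlapping intervals. CD8 T cells had 7412 CPM in the Control (25 cells) and 3740 CPM in AngII+HS (515 cells), and natural killer (NK) cells 7374 CPM (10 cells) and 4045 CPM (131 cells). Both were thus lower in AngII+HS, while they made up more of the class, which held 130 Control and 1099 AngII+HS cells. The CD8 subcluster was led by Cd6, Cd5 and Themis, and neither subcluster had markers of its own list among its 10 leading genes. No subcluster was named CD4, and whether the CD8 subcluster also held CD4 T cells was not tested. An unnamed subcluster led by Tdrp and Sidt1, the largest of the Control (48 cells, and 65 in AngII+HS), went the other way, from 922 to 3050 CPM (3.31-fold, interval 2.84 to 3.87). Mature DCs (69 cells, AngII+HS only) had Ccl5 at 3309 CPM and held 6.58% of its UMIs in that library. DCs as a whole had 409 and 570 CPM, but were made up of different cells in the libraries. In cDC2 (14 Control and 349 AngII+HS cells), conventional DCs marked by Cd209a and Mgl2, Ccl5 was lower in AngII+HS, at 773 and 273 CPM (0.353-fold), and 18 of the 41 Control DCs were shallow cells (median 818.5 UMIs) in a subcluster without AngII+HS cells, which carried the macrophage marker Mrc1. In T cells 8 of 9 members that could be compared were at least 2-fold higher, and 0 lower, against 10.8% and 3.58% of 9530 genes, and Ccl5 was the exception. Of these 8 members in AngII+HS, Ccl8 alone was above the free-RNA level. At 37.3 CPM it was 1.16 times its level in B cells, with an interval that held 1 (0.846 to 1.59).

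Ccl6 and Ccl9, the CCR1 ligands, were myeloid. In macrophages and monocytes Ccl6 was at 1008 CPM (966 to 1051) and 2554 CPM (2532 to 2577) and Ccl9 at 560 and 888 CPM. Neutrophils had Ccl6 at 1623 CPM (1475 to 1782) and 1706 CPM (1674 to 1739), with overlapping intervals, and Ccl9 at 33.1 and 95.2 CPM. Ccl6 was thus shared between macrophages and neutrophils, with 17.9 Ccl6 UMIs per Ccl9 UMI in neutrophils and 2.88 in macrophages and monocytes of AngII+HS. In DCs both were lower in AngII+HS, Ccl6 at 404 and 127 CPM and Ccl9 at 236 and 103 CPM. In cDC2 they were lower as well, Ccl6 at 681 and 152 CPM and Ccl9 at 392 and 123 CPM, while the class differed in its subclusters as given for Ccl5. In the 41 Control DCs these UMIs were 70 and 41, and without integration the log2 ratios were 0.20 and 0.12, opposite in sign. In neutrophils the log2 ratio of Ccl9 was −1.89 after subtraction of the free RNA estimate, also opposite in sign. In DCs 0 of 8 members were at least 2-fold higher and 2 at least 2-fold lower, against 13% of 8359 genes in each direction. The 23 AngII+HS cells led by Ctsk, Mmp9 and Acp5 had Ccl9 at 961 CPM and Ccl6 at 22.2 CPM.

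Free RNA in the droplets gives UMIs in cells that do not make a gene. Its level was estimated for each type as the library level of a chemokine times the relative level of marker genes counted as foreign to that type. In the Control the neutrophil list stood at 72.1% in macrophages and monocytes. The fibroblast list stood at 52.6% in VSMCs, 31.4% in pericytes and 25.1% in neural cells, against 2.89% in T cells. Where a type makes genes of such a list itself, the level is set too high, and this was not tested. In AngII+HS, the VSMC markers were at 36.1% of their library level in neutrophils and 22.4% in B cells, and in the Control at 6.51% and 5.16%. These are shares of different library levels, as VSMCs were far fewer in AngII+HS, and they do not compare the amounts of free RNA between the libraries. Of 120 pairs of a member and a cell type in the Control, 39 were above this level, and 34 of 130 in AngII+HS. Ccl12 was above it in macrophages and monocytes alone in both libraries, Ccl3 in AngII+HS in macrophages and monocytes and neutrophils, and Ccl11 in AngII+HS in fibroblasts and pericytes. Ccl8 was above it in 7 of 13 types of AngII+HS. The foreign lists held no macrophage markers, so the level may be too low for members made mainly by macrophages.

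B cells served as a second measure. They are not known as a main source of most members, but activated B cells can make Ccl3 and Ccl4, and here B cells were above the free-RNA level for Ccl4 in the Control and for Ccl8 in AngII+HS, so their level is not a pure background for these members. In AngII+HS they had Ccl4 at 407 CPM, Ccl2 at 138 CPM, Ccl3 at 74.0 CPM, Ccl6 at 64.5 CPM and Ccl8 at 32.2 CPM, and 38.0% of them held a Ccl4 UMI, against 10.1% in the Control. Relative to B cells, Ccl3, Ccl4, Ccl6, Ccl8 and Ccl9 stood between 0.182 and 0.402 in VSMCs, 0.265 and 0.604 in VECs, 0.303 and 0.753 in LECs and 0.300 and 0.918 in plasma cells. In these 4 types the values of the 5 members were below the B cell level and also under the free-RNA level in AngII+HS. The median depth there was 1986 UMIs in B cells, 9167 in VSMCs, 3952 in VECs, 4185 in LECs and 10549 in plasma cells. The same number of free UMIs per droplet gives a lower CPM in a deeper cell. A value below the B cell level is therefore partly set by depth, and amounts per cell were not compared. The intervals of Ccl6 in plasma cells (0.706 to 1.19) and of Ccl9 in LECs (0.403 to 1.33) held 1. Plasma cells were found in AngII+HS only. The higher values of these members in VSMCs, VECs and LECs of AngII+HS are not read as expression. In B cells themselves 8 of 8 compared members were at least 2-fold higher in AngII+HS and 0 lower, against 11.0% and 4.26% of 8788 genes. In VECs 9 of 10 were higher (8.23% of 13153 genes, with 5.99% lower), in VSMCs 9 of 10 (5.89% of 15527 genes, with 12.0% lower) and in LECs 4 of 5 (7.86% of 8628 genes, with 4.30% lower). In neural cells 7 of 7 were higher (6.90% of 8948 genes, with 4.17% lower) and in pericytes 6 of 6 (8.92% of 9356 genes, with 6.06% lower). In none of these types was a member at least 2-fold lower, and the compared members include those at or under the free-RNA level.

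**Figure D5:**
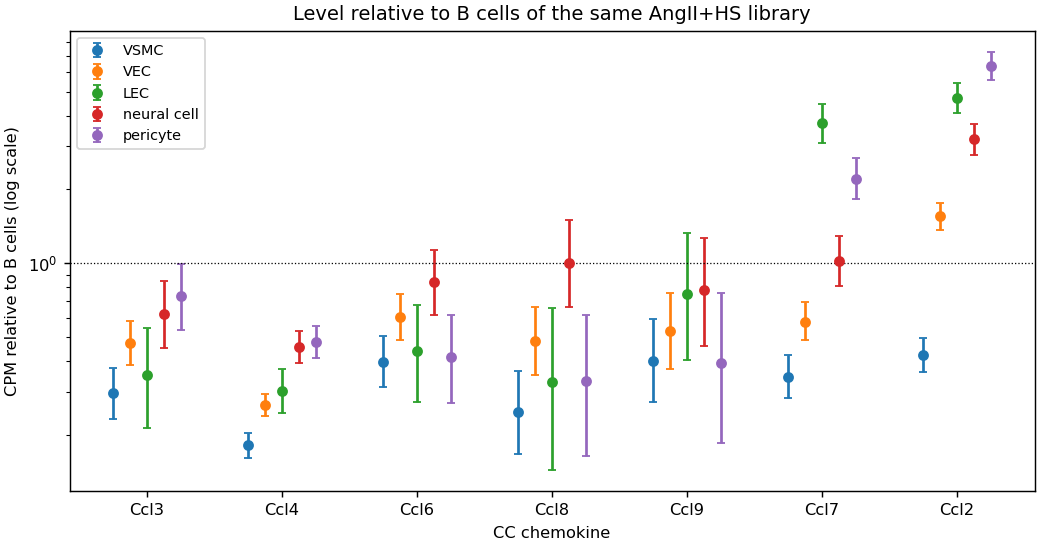
Level of 7 CC chemokines in 5 cell types of the AngII+HS library relative to B cells of the same library (dotted line at 1), on a logarithmic axis with 95% intervals. Ccl2 stands at 6.36 times the B cell level in pericytes and 4.72 times in LECs, whereas Ccl3, Ccl4, Ccl6, Ccl8 and Ccl9 stand under 1 in VSMCs, VECs and LECs. The interval of Ccl9 in LECs holds 1. The CPM that free RNA gives falls with depth, and median depth was 1986 UMIs in B cells and 9167 in VSMCs.

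How far the order of the levels over cell types was clear differed between members. For Ccl2 in AngII+HS the intervals of neighbours did not overlap from macrophages and monocytes over fibroblasts, pericytes and LECs (651 CPM) to neural cells (441 CPM), and for Ccl4 not from macrophages and monocytes over neutrophils, DCs (782 CPM) and T cells (490 CPM) to B cells (407 CPM). In AngII+HS, Ccl3 followed the order neutrophils, macrophages and monocytes, then B cells, DCs, T cells and plasma cells, and the intervals of neighbours overlapped from B cells on. For Ccl12 macrophages and monocytes came first, and the intervals of neutrophil, T cell, neural cell and pericyte values, between 12.1 and 7.12 CPM, overlapped from each to the next. After pericytes and fibroblasts, Ccl11 was at 9.05 CPM or less, and the intervals of neutrophils (6.11 CPM) and B cells (4.09 CPM) overlapped. For Ccl9, the DC value (103 CPM) and the neutrophil value (95.2 CPM) had overlapping intervals in AngII+HS. In the Control, the third and later types of Ccl8 were at 1.15 CPM or less, and those after macrophages and monocytes for Ccl12 at 2.12 CPM or less.

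Receptors of the members were measured in the same cells. In macrophages and monocytes Ccr2, the receptor of Ccl2, Ccl7 and Ccl12, was at 96.8 and 232 CPM, and Ccr1, a receptor of Ccl3, Ccl5, Ccl6 and Ccl9, at 251 and 146 CPM. Neutrophils carried Ccr1 at 423 and 566 CPM. The receptors of Ccl11 and Ccl8 were near the limit of detection in all cells, with 7 and 77 UMIs of Ccr3 and 14 and 44 UMIs of Ccr8 in the Control and AngII+HS libraries. Of the atypical receptors, which take up chemokines without signalling, Ackr1 in VECs was at 28.9 and 175 CPM, and Ackr4 in LECs at 117 and 18.8 CPM.

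Among the 9 other CC ligands, 6 were at least 2-fold higher and 1 at least 2-fold lower over all cells, against 20.8% and 11.5% of all genes. Ccl17 and Ccl22, ligands of CCR4, were at 23.1 and 334 CPM and at 98.0 and 330 CPM in DCs. Of the 14 inducers and NF-kB feedback genes, 3 of 11 compared were higher and 0 lower in macrophages and monocytes (10.7% and 17.4% of all genes), with Il1b at 562 and 3415 CPM and Nfkbia at 1553 and 3273 CPM, whereas Tnf was at 1379 and 1096 CPM. In neutrophils 5 of 11 were higher and 0 lower (17.4% and 10.5% of all genes), with Tnf at 622 and 2361 CPM. Of 14 immediate early genes, which tissue dissociation is known to induce, 6 were lower and 0 higher in macrophages and monocytes of AngII+HS, against the same 17.4% and 10.7%, among them Fosb at 1259 and 542 CPM and Egr1 at 1058 and 376 CPM. Their part in the levels of Ccl3 and Ccl4 was not tested.

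Over 25 points, each a cell type in a library, the genes most like each member in log2(CPM + 10) were taken from 14620 genes, leaving out the members themselves. Points of a library share its depth and free RNA, so the correlations are descriptions. Among these genes Ccl3 was most like C5ar1 (Pearson r 0.951), Ccl4 most like Tnf (0.913), Ccl6 most like Cd14 (0.965) and Ccl9 most like Cd68 (0.953). Ccl8 was most like C1qc (0.879) and Ccl12 most like C3ar1 (0.984), both genes of macrophages. Ccl11 was most like Ndufa4l2 (0.979), Ccl5 most like Il7r (0.930), and Ccl2 and Ccl7 most like Cebpa (0.820) and Plau (0.841). Between members, Ccl3 and Ccl6 (0.946) and Ccl2 and Ccl7 (0.929) were most alike, followed by Ccl3 and Ccl4 (0.916), while Ccl2 and Ccl5 had 0.034.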

How the data were processed

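Tissue of 1 library per condition was sequenced with the 10x Genomics 3′ chemistry. The authors made the deposited counts, unnormalized UMI counts of each barcode and gene, using Cell Ranger. The matrix headers name version 8.0.1, the study's methods another version, and the labels and methods name different genome builds (mm10 and GRCm39), so positions were matched by gene identifier. Total UMIs were 86618995 (Control, 11448 barcodes) and 117146856 (AngII+HS, 24804 barcodes).

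Cells with at least 500 UMIs, 200 genes and under 20% mitochondrial UMIs were kept, and 1019 and 4826 cells with the highest Scrublet scores (Scanpy 1.11.5, 0.8% per 1000 cells) were removed as doublets. Cells were integrated and clustered with Seurat 5.3.0 (2000 variable genes without chemokine ligands, 30 components, resolution 0.8) and named from marker lists, and the rule for ties between names was set after the clusters were seen. Macrophage and monocyte clusters were merged, and the classes with several kinds of cells were clustered again with 20 components at resolution 0.4. UMIs were summed per type and library and given as CPM.

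With 1 library per condition there is no test. A ratio of at least 2-fold, over genes with at least 20 UMIs, stands for a call. A gene without UMIs in a library was set to 3 UMIs there, or to fewer where 3 would have reversed the direction. Intervals are exact at 95% and cover counting error only. The free-RNA level is the library CPM times the highest relative level of VSMC, fibroblast or neutrophil markers in types counted as foreign to them. The scripts were tested on simulated data. All 10 members, the 3 genes most like each and the receptor, ligand, inducer, interferon and immediate early gene lists are named, except that 1 receptor and counts over the receptor list are not reported here. The members and lists were chosen with earlier results of these data known. Doublets, filters, integration, resolution, scaling, fold limits and free-RNA estimates were varied.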

Additional observations from a re-analysis of the deposited data

Results flagged for a closer look

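For 3 members the ratio of AngII+HS over Control was at least 2-fold higher in one cell type and at least 2-fold lower in another, both above the free-RNA level in both libraries, and with 1 library per condition these differences were not tested. The values that follow are log2 ratios. For Ccl11 the log2 ratio was 3.11 in pericytes and −1.299 in fibroblasts. For Ccl6 it was 1.342 in macrophages and monocytes and −1.671 in DCs. For Ccl9 it was 1.524 in neutrophils and −1.198 in DCs. The neutrophil value of Ccl9 rests on 9 UMIs in the Control (interval 0.589 to 2.66). Without integration the DC values of Ccl6 and Ccl9 were 0.20 and 0.12, and after subtraction of free RNA the neutrophil value of Ccl9 was −1.89. Opposite signs with less than 2-fold in one of the types were also found, for Ccl3 (−0.70 in macrophages and monocytes, 2.58 in neutrophils), Ccl4 (−0.34 and 4.10) and Ccl7 (−0.69 in macrophages and monocytes, 0.52 in fibroblasts and 0.69 in LECs). After subtraction of free RNA, Ccl7 was at 0.26 in fibroblasts and 0.009 in LECs. In macrophages and monocytes, Ccl4 was at 0.03 with TMM factors and 0.31 without integration, and Ccl7 at 1.89 without integration. The Control DCs were 41 cells and the Control neutrophils 99 cells, of which the latter fell into another subcluster than those of AngII+HS.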

How the results depend on the processing

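No paired analysis was possible because there is 1 library per condition, and no library could be left out for the same reason. Of 810 log2 ratios of members under an alternative, 162 moved out of the main interval and 36 had the opposite sign. For 4 of these 36 the main ratio was past 2-fold. Ccl6 and Ccl9 in DCs were at 0.20 and 0.12 without integration, and Ccl8 in fibroblasts and Ccl9 in neutrophils at −0.46 and −1.89 after subtraction of free RNA. Counts of members at least 2-fold higher became 0 in fibroblasts, VECs and VSMCs, 1 in T cells and 3 in neutrophils after subtraction, and 5 in macrophages and monocytes without integration. Without integration the named fibroblast and macrophage and monocyte classes held a smaller part of the Control UMIs of their members, as given above. The count of members at least 2-fold lower in macrophages and monocytes became 0 with double the doublets removed, the stricter cell filter, TMM factors, subtraction or at least 100 UMIs, 3 at resolution 1.2 and 4 at a fold of 1.5. It became 0 in fibroblasts without integration, 1 in VSMCs with double the doublets removed, 1 in T cells without doublet removal and 1 in T cells and in neutrophils after subtraction. The pairs above the free-RNA level in AngII+HS became 59 with the median gene list. The cause was not tested, except that subtraction removes members at the free-RNA level by its construction. Pericytes gave no Ccl11 ratio with double the doublets removed. The 2 libraries differ in median depth (7274 and 3065.5 UMIs), which limits shares of cells more than CPM.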

Other observations

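The 38 hemoglobin-led cells of the Control library had Ccl7 at 2448 CPM and Ccl2 at 1168 CPM, with Ccl3, Ccl8, Ccl9 and Ccl12 at 0 UMIs. The 23 AngII+HS cells led by Ctsk, Mmp9, Acp5 and Atp6v0d2 had Ccl9 at 961 CPM and Ccl12 at 0 UMIs. Among the VECs, a deep subcluster (median 9532 UMIs) led by Rgs4, Notch3 and Steap4, with 2 pericyte markers and 0 VEC subtype markers among its 10 leading genes, had Ccl11 at 174 CPM in 11 Control cells and 144 CPM in 27 AngII+HS cells.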
